A study of Rattus norvegicus with 4 samples.

Results

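The genes described here are those of transforming growth factor beta (TGF-beta) and bone morphogenetic protein (BMP) signalling together with the Id genes, 46 genes taken by name. They were measured in RT4D6, a rat Schwannoma line, that is a tumour line of the glia of peripheral nerve. Total RNA was taken at 48 h from cells given the wild type siRNA against Sox10 (2 samples) or the mutant siRNA that served as control (2 samples), and each sample was put on its own one-colour Affymetrix Rat 230 2.0 array. Replicate 1 and replicate 2 are described as independent pairs of cell samples, each with 1 sample of either siRNA. All 4 samples come from this single line, both groups carried an siRNA, and cells without any siRNA were not analysed here.

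Of the 46 genes, 43 had a probe set whose annotation names that gene alone, out of 14217 such genes on the array. The probe set with the highest mean log2 signal stood for each gene. Thbs1, Ski and Tgfbr2 had no such probe set and have no value. For 35 of the 43 that probe set was bright enough to be tested (not below the median of its array on 2 or more arrays), as it was for 9163 genes in all. Signals are MAS5 values on a linear scale, and fold changes are log2 differences, wild type minus mutant siRNA, after each array was centred on its median. After that centring the median log2 fold change of all tested genes was 0.19, and that of the 35 genes was -0.06.

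TGF-beta, activin and BMP ligands bind pairs of type I and type II receptor kinases at the cell surface. The activated type I receptor phosphorylates receptor Smads, Smad2 and Smad3 for TGF-beta and activin and Smad1, Smad5 and Smad9 for BMP, which join Smad4 and act on genes in the nucleus. The Id genes are classical targets of BMP signalling, and their products bind basic helix-loop-helix factors and keep them off DNA. In nerve, TGF-beta is known for acting on Schwann cell division and survival, and in other tissues for promoting smooth muscle genes.

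The targeted gene itself, Sox10, was at 163 and 335 after wild type siRNA against 2873 and 2890 after mutant siRNA. All 6 tested genes of a list of 9 Schwann cell genes, the targeted Sox10 among them, were lower with the wild type siRNA. Among all tested genes 10.6% were lower and 17.4% higher. Erbb3 entered the test only through its mutant siRNA arrays (674 and 438), as its wild type siRNA signals were 35.0 and 32.6. The summed signal of the 7 Schwann cell genes measured was 3035 and 4124 against 23036 and 16281. Gfap and Pmp22, 2 of these 6, missed the threshold in at least 1 fit with an array left out (highest adjusted p 0.0523 and 0.0521). Of 9 smooth muscle genes, 5 were tested and 3 of these were higher, Acta2, Tagln and Myl9, while Cnn1, Des, Lmod1 and Myocd were too dim to test. The other 2 did not pass. Myh11 was at 1.37 (adjusted p = 0.137), and Smtn, lower in both pairs, at -0.84 (adjusted p = 0.0633, or 0.0127 with the replicate block). Des and Myocd, which were not tested, were also lower in both pairs, Myocd at -0.04 and -1.82. The summed signal of those 9 was 32538 and 44358 with the wild type siRNA and 6876 and 12432 with the mutant siRNA. Tagln alone gave 21242 and 22657 of this with the wild type siRNA and 5482 and 9015 with the mutant siRNA. Of the lists for fibroblasts, endothelium and leukocytes, 1 gene each was bright enough to test, Col1a1, Tek and Cd14, and none of these passed, though Col1a1, at 0.70, did with the replicate block (adjusted p = 0.0240). In bulk RNA, fewer cells of a kind and less RNA per cell cannot be told apart, and the part of such a shift in the results given here was not tested.

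Among the 35 tested genes, 5 were lower and 4 higher after the wild type siRNA, counting those whose adjusted p in limma was under 0.05. Lower were Id4, Id1, the receptor Smad gene Smad3, the corepressor gene Tgif1 and the divergent ligand gene Gdf15. Gdf15 entered the test only through its mutant siRNA arrays, where it was high. Higher were Smurf1, a ubiquitin ligase for Smads and receptors, the activin antagonist gene Fst, and the receptor genes Bmpr1a and Acvr2a. The lower genes make up 14.3% of the 35, against 10.6% of all tested genes, and the higher genes 11.4%, against 17.4%. Called in either direction were 25.7% of these genes, with 1 probe set per gene. Counted by probe set, a different unit, 26.7% of all 16125 tested passed in either direction. The share of these genes that was called is thus near that of the array as a whole. The median size of the change was 0.57 on the log2 scale for the 35 genes and 0.47 for all tested genes. With the pairs as a replicate block, 8 of the 35 were lower and 7 higher. Among all tested genes, 14% were lower and 24.5% higher with that block. The genes added were Id3, Ltbp1 and Tgfbi, lower, and Inhba, Bmp7 and Smad7, higher. The count of lower genes also changed when single arrays were left out, which leaves a single array in a group. The share of all tested genes called in those fits was not computed, so those counts are not given. Without wild type siRNA replicate 2, the log2 fold changes of Id2, Id3, Tgfbi, Ltbp1, Tgfb2, Smurf2 and Bambi were further below 0 than with all 4 arrays. The methods' t-test, without correction, passed 6 of the 35, against 24.7% of all tested genes, in either direction.

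**Figure D1:**
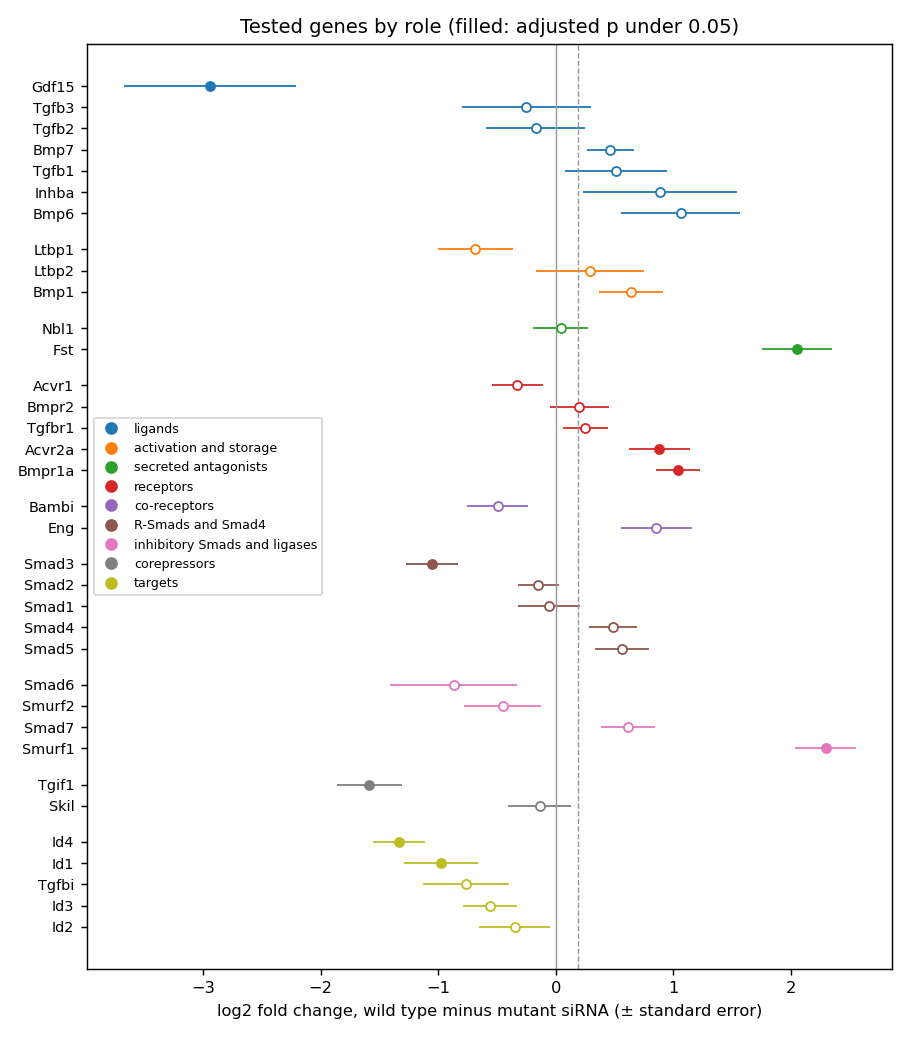
Log2 fold change, wild type minus mutant siRNA, of the 35 tested genes, ordered by role (colour). Points are limma estimates with bars of 1 standard error, filled where the adjusted p was under 0.05; the solid line is at 0 and the dashed line at 0.19, the median of all tested genes. The 5 genes of the target group all lie below 0, while filled points of the receptor and antagonist groups lie above it.

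The Id genes and Tgfbi, grouped here as targets, all had lower mean signals with the wild type siRNA. Of these 5 genes, 2 passed the test, where 10.6% of all tested genes were lower. They do not stand for all targets of the pathway. In the longer list of TGF-beta target genes given below, 3 of 20 tested were lower and 4 higher, with a median log2 fold change of 0.46. Id4 had signals of 608 and 727 with the wild type siRNA and 1552 and 2013 with the mutant siRNA. Both wild type siRNA arrays thus lay below both mutant siRNA arrays, and the difference within pair 1 (-1.32) was close to that within pair 2 (-1.35). The log2 fold change of Id4 was -1.33 (SE, the standard error, 0.22, adjusted p = 0.00542), and it passed with any single array left out.

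Id1 had signals of 821 and 1569 with the wild type siRNA against 2067 and 2691 with the mutant siRNA. The groups did not overlap, but the pairs differed in size, at -1.30 and -0.65 on the log2 scale. On the log2 scale Id1 was at -0.98 (SE 0.31, adjusted p = 0.0494), barely past the threshold. The call was lost without wild type siRNA replicate 1 (log2 fold change -0.48, adjusted p = 0.192), without mutant siRNA replicate 1 (adjusted p = 0.0959) or without mutant siRNA replicate 2 (adjusted p = 0.215). It was also lost with no filter on dim probe sets (adjusted p = 0.0574) and with no intensity trend (adjusted p = 0.129). With the replicate block the adjusted p was 0.00212.

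Id3 had signals of 5925 and 9399 with the wild type siRNA and 10474 and 12889 with the mutant siRNA. Id3, at -0.56 (SE 0.23), did not pass (adjusted p = 0.106), but it passed with the replicate block (adjusted p = 0.00410) and under quantile normalization (adjusted p = 0.0324). Without wild type siRNA replicate 1 Id3 was at -0.20 (adjusted p = 0.556), and without wild type siRNA replicate 2 at -0.92 (adjusted p = 0.00852). Both pairs were lower, at -0.79 and -0.33. Id2 had signals of 1381 and 2441 against 2912 and 2093, so that the groups overlapped and the pairs had opposite signs (-1.04 and 0.35). Id2 was at -0.35 (adjusted p = 0.415), but passed without wild type siRNA replicate 2, at -0.79.

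Tgfbi, which encodes a secreted matrix protein induced by TGF-beta, had signals of 552 and 1225 with the wild type siRNA and 1250 and 1733 with the mutant siRNA. Tgfbi was at -0.76 on that scale (SE 0.37, adjusted p = 0.150), and the adjusted p was 0.0171 with the replicate block. It was at -0.16 without wild type siRNA replicate 1 (adjusted p = 0.715) and at -1.36 without wild type siRNA replicate 2 (adjusted p = 0.00345).

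**Figure D2:**
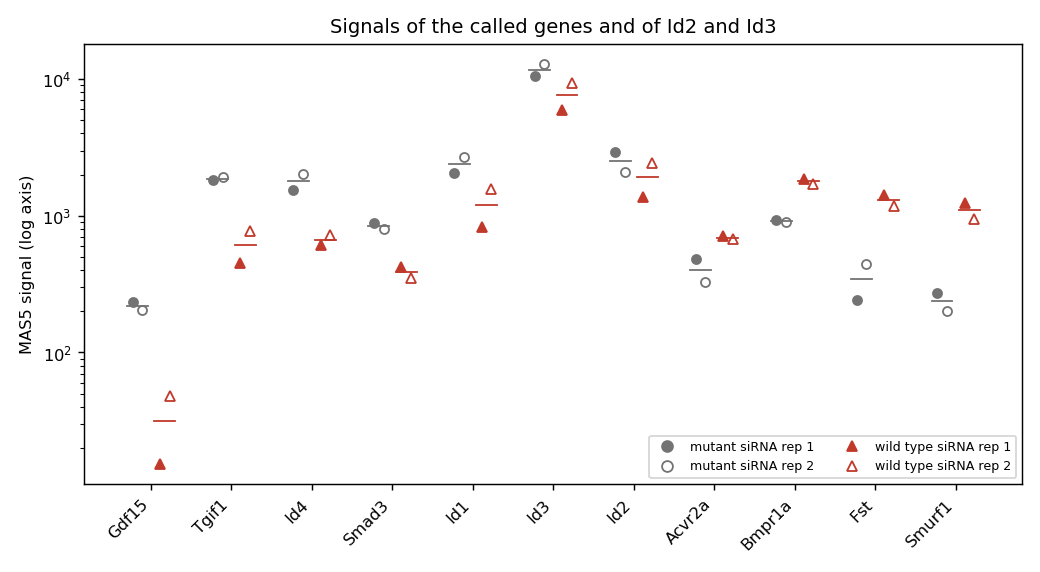
Signals on a logarithmic axis for the 9 genes that passed the test and for Id2 and Id3, ordered by log2 fold change from the lowest (Gdf15) to the highest (Smurf1). Grey circles are mutant siRNA arrays and red triangles wild type siRNA arrays, filled for replicate 1 and open for replicate 2, and lines are means of 2. The groups overlap for Id2, where wild type siRNA replicate 2 (2441) lies above mutant siRNA replicate 2 (2093). The 9 genes are shown because they passed the test between these groups, so their separation is not a further result.

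Of the 10 ligand genes, 7 were tested and 1 passed. Gdf15, a stress-induced member of the family that signals through another receptor, had signals of 15.2 and 47.9 with the wild type siRNA against 236 and 204 with the mutant siRNA. The first of these lay below the 25th percentile of that array (27.9), near background, so that the size of the change is not established. Both wild type siRNA signals lay below the medians of their arrays (105 and 101), and both mutant siRNA signals above theirs (108 and 110). Gdf15 thus entered the test only because it was high with the mutant siRNA, so its call is not independent of that filter. It was not tested where all 4 arrays had to reach the median. The log2 fold change was -2.94 (SE 0.73, adjusted p = 0.0217), and -2.05 with the 25th percentile of the array added to every signal. The call failed without mutant siRNA replicate 1 (adjusted p = 0.158) or mutant siRNA replicate 2 (adjusted p = 0.121).

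The TGF-beta ligand genes did not pass, at 0.51 for Tgfb1, -0.17 for Tgfb2 and -0.25 for Tgfb3. Tgfb2 passed without wild type siRNA replicate 2, at -0.87 (adjusted p = 0.0468). Inhba, the subunit gene of activin A, had signals of 647 and 2432 with the wild type siRNA against 400 and 1285 with the mutant siRNA. The replicates of each group thus differed by more than the groups did. Inhba was higher with the wild type siRNA in both pairs, by 0.73 and 1.04 on the log2 scale, and its log2 fold change of 0.89 had an adjusted p of 0.337, or 0.00490 with the replicate block. Without wild type siRNA replicate 1 it passed, at 1.87. Bmp7 had signals of 2720 and 3503 against 2180 and 2559, a log2 fold change of 0.47 (adjusted p = 0.117, or 0.0411 with the replicate block). Bmp6, at 1.07 (SE 0.51, adjusted p = 0.146), was higher by 1.06 and 1.08 in the pairs. Bmp2, Bmp4 and Inhbb were too dim to test. The signals of Bmp2 and Bmp4 lay between 24.0 and 113 on all arrays, and Inhbb stayed at 16.5 or less.

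The genes for release and storage of ligands, Bmp1, Ltbp1 and Ltbp2, did not pass. Ltbp1, which tethers latent TGF-beta to the matrix, had signals of 1297 and 2463 with the wild type siRNA and 2490 and 3690 with the mutant siRNA. On the log2 scale it was at -0.68 (SE 0.32, adjusted p = 0.143), and with the replicate block its adjusted p was 0.00910. It was at -0.19 without wild type siRNA replicate 1 (adjusted p = 0.645) and at -1.17 without wild type siRNA replicate 2 (adjusted p = 0.00680). Bmp1, the protease that trims procollagen and BMP antagonists, was at 0.64 (adjusted p = 0.115), and Ltbp2 at 0.29.

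Fst encodes follistatin, which binds activin and some BMPs and blocks them. It had signals of 1424 and 1173 with the wild type siRNA and 242 and 446 with the mutant siRNA, a log2 fold change of 2.05 (SE 0.30, adjusted p = 0.00347). The lowest wild type siRNA array was more than 2 times the highest mutant siRNA array, and the call held with any single array left out. A second probe set of Fst gave 1.43 (SE 0.39, adjusted p = 0.0299), failing without wild type siRNA replicate 2 (adjusted p = 0.0571) or mutant siRNA replicate 1 (adjusted p = 0.126). Nbl1, which encodes another secreted BMP antagonist, did not pass at 0.04 (adjusted p = 0.907), and its sign turned with the signals as deposited. Grem1, Nog and Chrd were too dim to test, with no signal above 86.2 on any array.

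Of the receptor genes, Bmpr1a, for a type I BMP receptor, had the tighter replicates. Its signals were 1867 and 1697 with the wild type siRNA and 926 and 900 with the mutant siRNA, a log2 fold change of 1.04 (SE 0.19, adjusted p = 0.00720). It rose by 1.05 and 1.04 in the pairs and passed with any single array left out. Acvr2a, for a type II receptor of activin and BMP, had signals of 707 and 674 against 481 and 326, a log2 fold change of 0.88 (SE 0.26, adjusted p = 0.0375). That call was lost without wild type siRNA replicate 1 (adjusted p = 0.0780), wild type siRNA replicate 2 (adjusted p = 0.0589) or mutant siRNA replicate 2 (adjusted p = 0.215), and also with no filter on dim probe sets (adjusted p = 0.0524) or no intensity trend (adjusted p = 0.0817).

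Tgfbr1, the type I receptor of TGF-beta, was at 0.25, Bmpr2 at 0.20 and Acvr1 at -0.33, with adjusted p between 0.291 and 0.575. Among the co-receptors, Eng (endoglin) had signals of 256 and 304 with the wild type siRNA against 166 and 159 with the mutant siRNA. Its groups did not overlap, but its log2 fold change of 0.86 (SE 0.30) missed the threshold (adjusted p = 0.0684), and passed among the probe sets at or above the median on all 4 arrays (adjusted p = 0.0403). Bambi, a decoy receptor, was at -0.49 (adjusted p = 0.188), and at -0.80 without wild type siRNA replicate 2 (adjusted p = 0.0425). Tgfbr3, betaglycan, was too dim to test, with signals of 11.7 and 62.5 against 90.0 and 80.5.

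Smad3, the receptor Smad of TGF-beta and activin, had signals of 421 and 352 with the wild type siRNA against 890 and 801 with the mutant siRNA. The groups lay well apart and the pairs gave -1.04 and -1.06. Smad3 was at -1.05 on the log2 scale (SE 0.22, adjusted p = 0.0120), failing without mutant siRNA replicate 1 (adjusted p = 0.0789). Smad2, its partner in the same branch, had signals of 1717 and 1766 against 1998 and 2074, a log2 fold change of -0.15 (SE 0.18, adjusted p = 0.565). Whether the changes of Smad3 and Smad2 differ was not tested. Smad1, Smad4 and Smad5 did not pass in the probe sets that stood for them, at -0.06, 0.49 and 0.57, and Smad9 was too dim to test, with no signal above 89.2.

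Tgif1 encodes a homeodomain protein that recruits corepressors to Smad complexes. Its signals were 453 and 768 with the wild type siRNA and 1824 and 1919 with the mutant siRNA, a log2 fold change of -1.59 (SE 0.28, adjusted p = 0.00638), which held with any single array left out. Skil, for the corepressor SnoN, did not pass at -0.14 (adjusted p = 0.735).

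Smurf1 had the highest log2 fold change of the 35 genes. Its signals were 1247 and 951 with the wild type siRNA and 272 and 201 with the mutant siRNA, a log2 fold change of 2.30 (SE 0.26, adjusted p = 0.00180), and the call held with any single array left out. A second probe set of Smurf1 went the other way, with signals of 147 and 229 against 382 and 488, and a log2 fold change of -1.16 (SE 0.32, adjusted p = 0.0304). That opposite call was lost without wild type siRNA replicate 1 (adjusted p = 0.0996), mutant siRNA replicate 1 (adjusted p = 0.0807) or mutant siRNA replicate 2 (adjusted p = 0.168). The direction of the Smurf1 transcripts as a whole is therefore not settled by these arrays. Smurf2 was at -0.45 (adjusted p = 0.334), and at -0.88 without wild type siRNA replicate 2 (adjusted p = 0.0471). Of the inhibitory Smads, Smad7 was at 0.61 (adjusted p = 0.0820, or 0.0358 with the replicate block and 0.0431 without wild type siRNA replicate 1) and Smad6 at -0.87 (adjusted p = 0.256).

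Of the 15 genes with more than 1 tested probe set, 1 had calls in both directions (Smurf1) and 2 had called beside uncalled probe sets (Smad5 and Id4). For Smad5, the brightest probe set had signals of 736 and 955 with the wild type siRNA and 578 and 619 with the mutant siRNA. Another had 179 and 263 against 868 and 763, a log2 fold change of -1.83 (SE 0.28, adjusted p = 0.00395) that held with any single array left out. A further one fell by 1.57 on the log2 scale (adjusted p = 0.0203), failing without mutant siRNA replicate 1 (adjusted p = 0.155) or mutant siRNA replicate 2 (adjusted p = 0.0680). The fourth was at 0.35. For Id4, the other 3 probe sets were at -0.09, -0.81 and -1.17, and only the last passed (adjusted p = 0.0488), failing with any single array left out (adjusted p between 0.0707 and 0.297). Which transcripts each probe set matches was not analysed here.

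**Figure D3:**
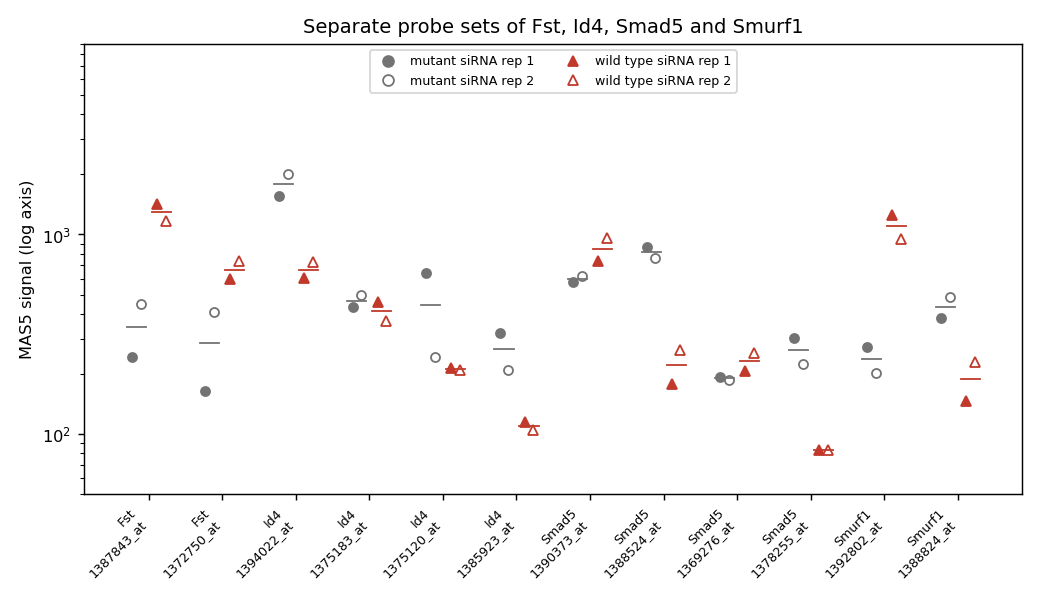
Signals on a logarithmic axis for the tested probe sets of Fst, Id4, Smad5 and Smurf1, with the probe set name under each gene. Grey circles are mutant siRNA arrays and red triangles wild type siRNA arrays, filled for replicate 1 and open for replicate 2, and lines are means of 2. The wild type siRNA arrays lie above the mutant siRNA arrays for 1 probe set of Smurf1 and below them for the other.

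Many of these genes also differed between the replicates, whichever siRNA was given, a pattern looked at after the values were seen. On the centred log2 scale, 23 of the 35 were higher on replicate 2 than on replicate 1 with both siRNAs (65.7%), against 26.7% of all tested genes, and 4 were lower with both. The median difference, replicate 2 minus replicate 1, was 0.50 with the wild type siRNA and 0.26 with the mutant siRNA, against 0.01 and -0.04 for all tested genes. It was widest for Inhba, at 1.96 and 1.65, and Tgfb3 was at 1.04 and 1.53, Tgfb1 at 0.87 and 1.26, Tgfb2 at 1.41 and 0.64 and Smad6 at 1.09 and 1.30. For these 5 genes the step between replicates was larger than their log2 fold change between siRNAs, in the probe sets that stood for them. A second tested probe set gave 1.39 and 0.75 for Tgfb2 but 0.39 and 0.71 for Smad6. The other probe set of Inhba, too dim to test, gave 1.15 with the wild type siRNA and -0.02 with the mutant siRNA. Bmpr1a and Smad3, in contrast, differed by -0.20 to -0.08 between replicates. What set the replicates apart was not tested.

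**Figure D4:**
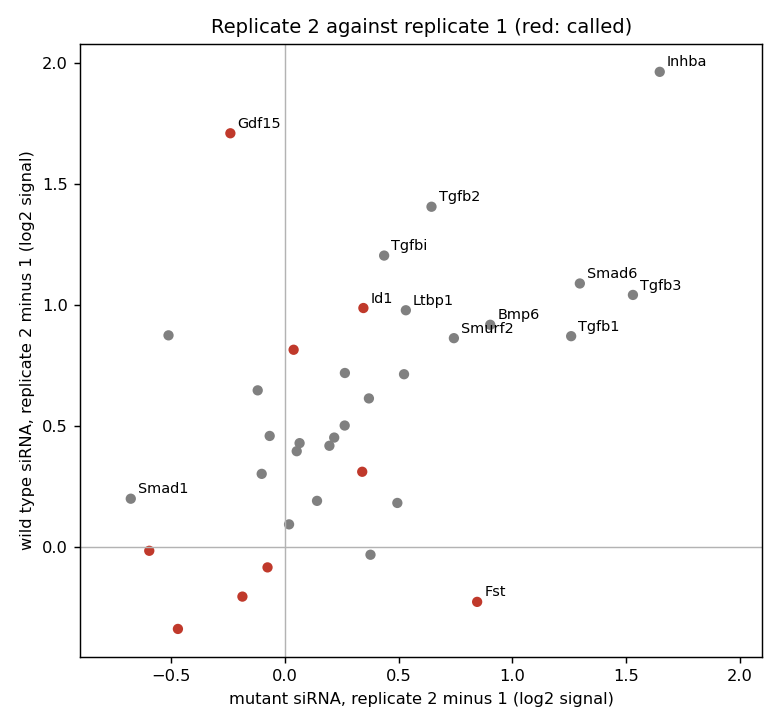
Difference in log2 signal between replicate 2 and replicate 1 with the mutant siRNA (horizontal axis) and with the wild type siRNA (vertical axis), for the 35 tested genes, after median centring. Red points are genes that passed the test between siRNAs. Inhba lies farthest out at 1.65 and 1.96, and 23 genes lie above 0 on both axes.

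Beyond these genes, 34 of 69 other genes named for the pathway were tested, of which 4 were lower (11.8%) and 6 higher (17.6%), near the 10.6% and 17.4% of all tested genes. Their median log2 fold change was 0.19, the same as that of all tested genes to 2 decimals. With the replicate block 6 of the 34 were lower and 11 higher, against 14% and 24.5% of all tested genes. Genes of this and the later lists are given by their brightest probe set alone, of 3 for Itgav, 4 for Timp3 and 2 for Tcf4. Whether the other probe sets of these genes go the same way was not examined. Itgav, the integrin subunit that can release latent TGF-beta, was at 1.86 (SE 0.21, adjusted p = 0.00203), and Ltbp4, a latent TGF-beta binding protein, at 1.25 (SE 0.27, adjusted p = 0.0133), the latter lost without mutant siRNA replicate 1 (adjusted p = 0.0733). Pmepa1, a target and inhibitor of TGF-beta signalling, had signals of 3160 and 4784 with the wild type siRNA and 9679 and 9952 with the mutant siRNA, a log2 fold change of -1.26 (SE 0.22, adjusted p = 0.00621). Rgma, a BMP co-receptor, was at -1.43 (adjusted p = 0.0106), lost without mutant siRNA replicate 1 (adjusted p = 0.0644) or replicate 2 (adjusted p = 0.0728).

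Of 30 symbols listed for TGF-beta target genes, 20 were tested, and 3 were lower (15%) and 4 higher (20%), against the 10.6% and 17.4% of all tested genes, with a median log2 fold change of 0.46 against 0.19 for all tested genes. The higher ones included the contractile genes Acta2, at 2.37 (adjusted p = 0.0182, lost without mutant siRNA replicate 1 at 0.0808), and Tagln, at 1.72 (adjusted p = 0.00247), which also stand in the smooth muscle list, and Hmga2, a chromatin protein, at 1.79 (adjusted p = 0.0100). Timp3, a metalloprotease inhibitor, was lower at -1.84 (SE 0.30, adjusted p = 0.00518). With the replicate block 3 were lower and 9 higher, the added ones being Ccn2, Ccn1, Col1a1, Col3a1 and Timp1, against 14% and 24.5% of all tested genes.

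Promoter sequence, from 250 bases before to 50 after the start of the gene, was taken from RefSeq on the rat build GRCr8, and 38 of the 46 genes had an entry. Fst, Smurf1 and Tgif1 had none. The letters searched were ACAAT, the core that Sox proteins bind, which reads ATTGT on the opposite strand. A Smad-binding element was searched as CAGAC, which reads on the opposite strand as GTCTG. The letters GGCGCC, part of elements that respond to BMP, are the same on both strands. Matches to the Sox core on opposite strands can overlap. The Sox core stood in 4 of the 38 (10.5%), against 19% of the promoters of tested genes and 33.7% of all promoters in the table. CAGAC stood in 13 (34.2%, against 47.8% and 50.1%), and GGCGCC in 17 (44.7%, against 22.5% and 11%). The 38 include genes outside the tested set. Bmp4, Chrd, Grem1, Inhbb, Nog, Smad9 and Tgfbr3 were too dim to test. Thbs1, Ski and Tgfbr2 had no probe set of their own. Some CAGAC and GGCGCC matches were in the dim genes, so the tested genes are not a like comparison. The shares among the tested genes of the list were not computed. For Gdf15 and Smad2, which have several starts, a match at any start was counted. The share of G and C was 63.9% in the promoters of the 38, 61.4% in those of tested genes and 52.7% in all. Matches are letters in a window and were not examined for binding.

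The 250 bases before the start, 5′ to 3′, are given for 5 of the 6 called genes with an entry, with any of these motifs in capitals. Gdf15 and Bmpr1a were the called genes with an entry whose values were lowest and highest, Id1 and Acvr2a hold the Sox core, and Id4 was the Id gene with the lowest adjusted p. Gdf15 has 2 starts in the table, and the window with a motif is given.
Gdf15, chr16:18839015-18839264, plus strand: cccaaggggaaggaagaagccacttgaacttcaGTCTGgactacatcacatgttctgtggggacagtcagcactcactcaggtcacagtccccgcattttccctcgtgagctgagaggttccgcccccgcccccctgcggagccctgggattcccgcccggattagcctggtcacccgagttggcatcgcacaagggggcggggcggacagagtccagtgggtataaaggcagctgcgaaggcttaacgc
Bmpr1a, chr16:9786862-9787111, minus strand: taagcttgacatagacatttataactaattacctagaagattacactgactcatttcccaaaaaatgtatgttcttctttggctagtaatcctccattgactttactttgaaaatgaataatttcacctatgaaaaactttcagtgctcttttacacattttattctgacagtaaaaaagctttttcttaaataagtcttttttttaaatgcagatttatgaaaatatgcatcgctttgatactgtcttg
Id1, chr3:161671314-161671563, plus strand: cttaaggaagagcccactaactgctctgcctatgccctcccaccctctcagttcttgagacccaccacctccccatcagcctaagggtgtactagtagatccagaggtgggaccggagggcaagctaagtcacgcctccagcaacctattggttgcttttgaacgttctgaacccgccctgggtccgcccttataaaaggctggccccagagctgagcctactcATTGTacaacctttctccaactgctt
Id4, chr17:16598294-16598543, minus strand: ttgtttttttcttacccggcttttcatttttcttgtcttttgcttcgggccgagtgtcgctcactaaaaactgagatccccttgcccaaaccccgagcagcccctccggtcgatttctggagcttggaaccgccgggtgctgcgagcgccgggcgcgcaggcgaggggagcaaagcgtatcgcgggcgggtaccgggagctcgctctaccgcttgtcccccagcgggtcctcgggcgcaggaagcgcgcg
Acvr2a, chr3:53614536-53614785, plus strand: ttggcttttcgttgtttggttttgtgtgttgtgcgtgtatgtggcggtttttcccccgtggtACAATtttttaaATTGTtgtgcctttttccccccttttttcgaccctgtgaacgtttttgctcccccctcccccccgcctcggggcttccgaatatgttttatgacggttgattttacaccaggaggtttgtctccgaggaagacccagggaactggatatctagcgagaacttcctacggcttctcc

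Acvr2a holds the Sox core at -188 and, on the other strand, at -176, counted from the start of the gene to the first letter of the match, and Id1 holds it at -26 on the other strand. Id1 was lower and Acvr2a higher with the wild type siRNA, and both calls were lost with some single arrays left out. After the start, in the bases not printed, Id4 holds GGCGCC at 38, Smad3 holds the same letters at 17 and Acvr2a at 0, and Id1 holds CAGAC at 23. Bmpr1a holds none of the motifs in its window. Gdf15 holds the Smad-binding letters at -217.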

How the data were processed

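The intensity values deposited by the authors are linear MAS5 signals, 1 for each probe set, whose 2% trimmed mean is 500 on every array. MAS5 is named in the submitters' processing notes, with no version. The methods used the detection calls, median normalization and a t-test; detection calls were not used here. After 57 control probe sets were left out of 31099, log2 signals had the median of their array subtracted (101 to 110 as signals). The 25th percentile of an array, 26.2 to 31.0, stood for background. The 16125 probe sets at or above the median on at least 2 arrays entered limma 3.58.1, run in R 4.3.3 with lmFit and eBayes (intensity trend, Benjamini-Hochberg over all of them). The number of arrays limits the precision. Symbols came from the platform annotation: it gives 1 symbol to 20826 probe sets, more than 1 to 436 and none to 9780. Every gene of the list is named, with full values where it passed the test or is an Id gene, and for other lists the called genes with the largest change.

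The genes, lists and alternatives were chosen with earlier results of these data known. The submitters' design describes paired cells, so an alternative fit took same-numbered arrays as pairs (replicate block); their deviations from the group means correlated at 0.141. Other alternatives were the scaling, low signals, filters, variance model, the methods' t-test, every probe set of a gene, and each array left out. The methods do not describe the form of that t-test, which was run here unpaired, with equal variances, on log2 values. The code was tested on simulated arrays. Python 3.11.15, pandas 2.3.3 and matplotlib 3.10.9 made the tables and plots.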

Additional observations from a re-analysis of the deposited data

How the results depend on the processing

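The count of 5 lower genes became 8 and that of 4 higher genes became 7 with the replicate block. The methods' t-test passed 2 lower and 4 higher genes without correction, and 0 lower and 0 higher after Benjamini-Hochberg adjustment. With single arrays left out, where the remaining array of a group borrows its spread from the rest, lower genes numbered between 2 (without mutant siRNA replicate 1) and 12 (without wild type siRNA replicate 2), and higher genes between 3 and 5. Under other scalings, treatments of low signals, filters and the variance model without trend, the lower genes numbered between 4 and 6 and the higher genes between 3 and 5. With every probe set, 7 and 4 genes had at least 1 call. For these settings and the adjusted t-test, the share of all tested genes called was not computed. Whether these counts moved with the array as a whole is therefore not known. Of 451 values of single genes under an alternative, 398 kept direction and call, 22 lost the call, 17 gained one and 14 turned direction. The turned values belong to 9 genes that were not called. With the signals as deposited Nbl1 was at -0.036. With single arrays left out, the log2 fold change ran from -0.19 to 0.27 for Nbl1, from -0.12 to 1.14 for Tgfb1, from -0.87 to 0.53 for Tgfb2, from -1.01 to 0.52 for Tgfb3, from -0.12 to 0.53 for Bmpr2, from -0.095 to 1.87 for Inhba, from -0.40 to 0.28 for Smad1, from -0.79 to 0.090 for Id2 and from -0.49 to 0.22 for Skil. The cause was not tested. Of the 9 called genes, 5 passed with any single array left out: Fst, Smurf1, Bmpr1a, Id4 and Tgif1. A signal near background and entry to the test through the mutant siRNA arrays alone limit Gdf15, and 8 genes were too dim to test.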

Other observations

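Basic helix-loop-helix factors, the class that Id proteins act on, were a further list, of which 18 of 19 genes had a probe set and 8 were tested. Which of them Id proteins bind was not examined. Tcf4, an E protein that binds DNA with tissue-specific partners and is held off it by Id proteins, had signals of 1732 and 2425 after wild type siRNA against 4808 and 4728 after mutant siRNA. On the log2 scale it was at -1.14 (SE 0.21, limma adjusted p = 0.00770), and from -1.41 to -0.87 with single arrays left out. Tcf4 was the single gene of the list that passed. That is 12.5% of those tested, near the 10.6% that were lower among all tested genes. Tcf12, another E protein, was at -0.22 (adjusted p = 0.431), and Tcf3, with signals of 38.1 and 103 against 121 and 174, at -1.13 (SE 0.63, adjusted p = 0.211). Hes1, a repressor under Notch control, was at -0.51 (adjusted p = 0.128, or 0.0478 with the replicate block) and Hes6 at 0.60 (adjusted p = 0.0771, or 0.0303 with the replicate block). Hey1, Hey2 and Bhlhe41 did not pass, at -0.35, -0.49 and 0.42. Olig1, Olig2, Twist1, Twist2, Hand1, Hand2, Hes5, Neurod1, Myod1 and Myf6 were too dim to test, with signals of 125 or less on all arrays.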
